A study of Homo sapiens with 8 samples.

Results

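The annexin genes described here are ANXA1, ANXA2, ANXA3, ANXA4, ANXA5, ANXA6, ANXA7 and ANXA11, 8 of the 13 protein-coding annexin genes with a row among the 58219 genes of the deposited tables. They were chosen by gene symbol and from their counts and TPM in these same libraries, with the responses known, so their levels and changes are a description of the data and not a test of the family. RNA had been sequenced from NCI-H929 (H929) and KMS11, established human multiple myeloma (MM) cell lines that both carry the t(4;14) translocation, after 24 h in 2 µM fluvastatin, a statin that blocks HMG-CoA reductase, or in ethanol as its solvent. The 4 groups held 2 biological replicates each, or 8 libraries in all. Both lines were grown in RPMI1640 with serum, no other agent was given, and each line stands for a single tumour.

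Annexins are cytosolic proteins that bind acidic phospholipids, phosphatidylserine among them, when calcium rises. Most share a folded core of repeats that forms the calcium and membrane sites, and they differ in the N-terminal stretch that binds partners, often S100 proteins. They are known for membrane repair, vesicle traffic and the link between membrane and cortical actin, and annexin V protein is the common stain for phosphatidylserine on dying cells. The measurements below are of their transcripts.

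Total estimated counts per library lay between 26702506 and 41910438. Replicates differed by more than sampling noise in every group, by a chi-square over its degrees of freedom of 10.2 to 17.7 in 3 groups and of 47.8 between both KMS11 fluvastatin libraries, which stood furthest apart. The plasma cell markers SDC1, TNFRSF17, IRF4, PRDM1, XBP1, MZB1 and SLAMF7 were present in all libraries, whereas CD38 was at most 0.04 TPM in KMS11. Of 15 markers of T cells, B cells, monocytes, fibroblasts and erythroid cells, 13 stayed under 1 TPM in every library, and CD3E and CD68 did not. The summed monocyte markers, nearly all CD68, were at 1.90 to 2.29 TPM in the H929 ethanol libraries and at 7.88 to 8.35 TPM with fluvastatin, while LYZ, CD14 and CSF1R were near 0; the summed T cell markers went from between 1.51 and 1.60 TPM to between 3.07 and 3.54 TPM. Of the 8 plasma cell markers, 4 fell with fluvastatin in H929 by edgeR, where 19.3% of all tested genes were called lower and 22.7% higher. SDC1 fell by 1.08, MZB1 by 1.02, SLAMF7 by 0.98 and XBP1 by 0.34 on the log2 scale (adjusted p = 0.00086, 0.0086, 0.0003 and 0.0083). PRDM1 rose by 0.32 (adjusted p = 0.015), and TNFRSF17, CD38 and IRF4 were not called. In KMS11, edgeR called XBP1 alone of these 8 markers, lower by 0.40 (adjusted p = 0.035). There 0.533% of all tested genes were called lower. The 8 markers summed to 893 to 921 TPM in KMS11 ethanol libraries and to 644 to 731 TPM with fluvastatin. In H929 these sums were 2000 to 2140 TPM and 1680 to 1730 TPM. The part of these shifts in the results below was not tested, and in bulk RNA a change in the number of cells of a kind and a change in RNA per cell cannot be told apart.

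On GRCh38, by GENCODE release 44, ANXA1 (ENSG00000135046.13) is at chr9:73151865-73170393 on the plus strand and ANXA2 (ENSG00000182718.16) at chr15:60347134-60402883 on the minus strand. ANXA3 (ENSG00000138772.12, chr4:78551747-78610451, plus) and ANXA5 (ENSG00000164111.14, chr4:121667946-121696995, minus) share a chromosome, as do ANXA7 (ENSG00000138279.15, chr10:73375101-73414076, minus) and ANXA11 (ENSG00000122359.17, chr10:80150889-80205572, minus). ANXA4 (ENSG00000196975.15) is at chr2:69644425-69827112 on the plus strand, where AAK1 overlaps it on the other strand, and ANXA6 (ENSG00000197043.13) is at chr5:151100706-151157815 on the minus strand. The libraries were stranded, but the strand setting of the counting is not given in the sources used here, so reads from ANXA4 and AAK1 may not be fully separated.

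The promoters of ANXA1 and ANXA2 are shown because of their fold change and level. ANXA1 had the largest fold change with fluvastatin in both lines, leaving aside ANXA3 in H929, which had 0 counts in ethanol. ANXA2 was the most abundant member with fluvastatin in both lines. The letters are the 250 bases before the RefSeq start of each gene (GRCh38.p14), 5′ to 3′ on the gene's strand, chr9:73151615-73151864 for ANXA1 and chr15:60397987-60398236 for ANXA2. Capitals mark matches, on either strand, to 9 short motifs, here a TATA box (TATAAA) in both, and in ANXA2 an AP-1 site (TGANTCA), boxes of the CACCC kind (CCACCC or its reverse complement) and a run of overlapping GC boxes (GGGCGG).
ANXA1: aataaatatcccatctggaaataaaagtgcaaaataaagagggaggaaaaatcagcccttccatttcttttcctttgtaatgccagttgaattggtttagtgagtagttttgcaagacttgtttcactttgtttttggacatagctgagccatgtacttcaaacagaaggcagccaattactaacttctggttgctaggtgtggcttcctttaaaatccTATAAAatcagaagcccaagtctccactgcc
ANXA2: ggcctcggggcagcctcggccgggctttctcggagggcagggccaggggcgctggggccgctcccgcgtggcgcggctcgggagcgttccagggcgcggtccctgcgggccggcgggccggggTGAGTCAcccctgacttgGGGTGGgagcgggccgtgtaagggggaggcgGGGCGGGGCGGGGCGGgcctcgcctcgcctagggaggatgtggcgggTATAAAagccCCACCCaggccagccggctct
The TATA box began 31 bases before the start in both genes, in a sequence of 38.4% G and C in ANXA1 and of 78.0% in ANXA2. A TATAAA was present in 10.7% of the 35116 promoter windows of this length in the table, an AP-1 site in 6.57%, a GC box in 42.6% and a CACCC box in 31.3%. All 8 annexins had an entry, with 12 windows between them: 3 of the genes held a TATAAA, 1 an AP-1 site, 6 a GC box and 7 a CACCC box. A gene was counted if any of its windows held the motif, whereas the percentages are shares of single windows. Gene counts and percentages here are therefore not on the same scale. The CACGTG E-box was in 2 genes (6.34% of all windows) and the ETS core CCGGAAG in 1 (8.52%). No member window held the cyclic AMP response element core TGACGT (7.10% of all windows), the STAT site TTCNNNGAA (6.57%) or the NF-kappaB core GGGANTTCC (1.59%), which says only that these letters were not in these windows. A match is a run of letters and no evidence of binding.

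Levels of different genes were compared in TPM, a transcript abundance that divides counts by length and scales each library to the same total. In H929 cells in ethanol, ANXA2 was the most abundant member at 180 ± 1.40 TPM (SD, n = 2, as for all group values here), followed by ANXA5 at 73.2 ± 1.48 TPM and ANXA7 at 39.6 ± 2.54 TPM. ANXA11 at 30.2 ± 3.38 TPM and ANXA6 at 28.0 ± 0.764 TPM came next, and their replicates overlapped, so that their order is not set. ANXA4 (4.44 ± 0.0354 TPM), ANXA1 (1.40 ± 0.297 TPM) and ANXA3, listed at 0 in both libraries, were lowest. KMS11 in ethanol had another order: ANXA6 led at 172 ± 5.33 TPM, ahead of ANXA2 at 133 ± 2.23 TPM and ANXA5 at 94.7 ± 7.76 TPM. ANXA7 (68.1 ± 2.17 TPM), ANXA11 (38.9 ± 0.410 TPM) and ANXA4 (7.11 ± 1.03 TPM) followed there, and ANXA3 (0.365 ± 0.120 TPM) and ANXA1 (0.230 ± 0.184 TPM) overlapped at the bottom.

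With fluvastatin, ANXA2 was the highest member in both lines, at 496 ± 58.5 TPM in H929 and 226 ± 31.8 TPM in KMS11. H929 then had ANXA5 at 138 ± 13.1 TPM, ANXA11 at 77.9 ± 4.33 TPM, and ANXA6, ANXA7 and ANXA1 at 50.8 ± 3.85, 47.9 ± 1.92 and 39.2 ± 16.2 TPM, where each overlapped the next. ANXA1, which had been next to last in this line, thus came within the range of ANXA6 and ANXA7, while ANXA4 (10.9 ± 1.51 TPM) and ANXA3 (0.125 ± 0.0495 TPM) stayed below. In KMS11, ANXA6 (169 ± 3.82 TPM), ANXA5 (97.9 ± 14.4 TPM), ANXA7 (61.4 ± 4.86 TPM), ANXA11 (38.6 ± 3.08 TPM) and ANXA4 (7.96 ± 1.59 TPM) followed ANXA2 without overlap between neighbours. ANXA1 was at 1.17 ± 0.205 TPM and ANXA3 at 0.460 ± 0.0849 TPM in these KMS11 libraries.

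**Figure D1:**
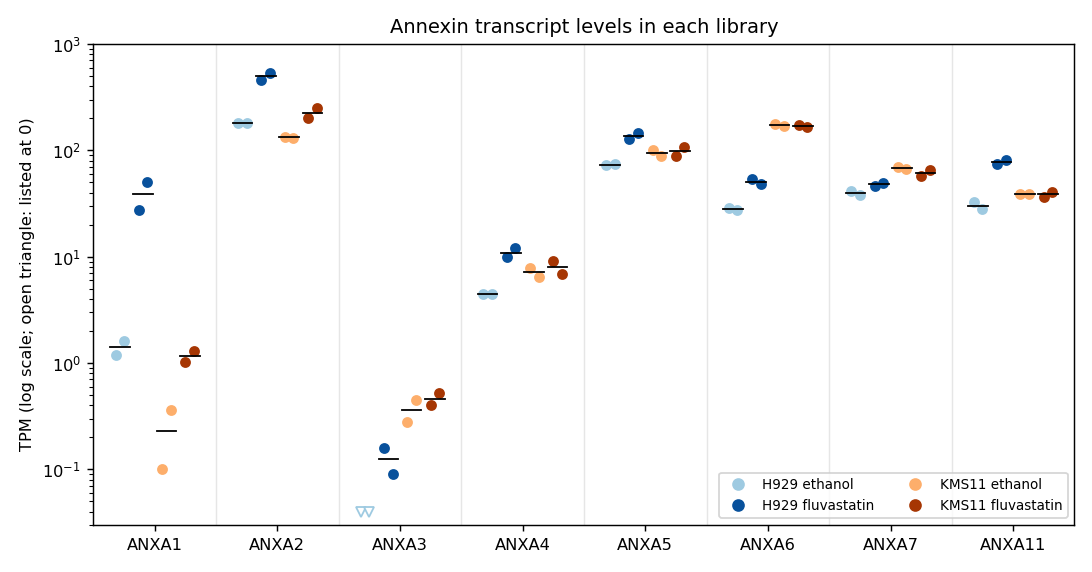
TPM of the 8 annexins (log axis) in each of the 8 libraries, with the mean of both replicates of a group as a bar. ANXA1 in H929 goes from 1.19 and 1.61 TPM in ethanol to 27.7 and 50.6 TPM with fluvastatin, and ANXA6 is between 166 and 176 TPM in all KMS11 libraries; open triangles mark ANXA3 listed at 0.

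The summed TPM of the 8 genes was 361.6 and 352.7 in H929 ethanol libraries and 795.6 and 925.3 with fluvastatin, and it was 527.4 and 502.2 in KMS11 ethanol libraries and 567.2 and 636.5 with fluvastatin. Within each line the fluvastatin libraries lay above the ethanol libraries. Shares of this sum do not depend on the scaling of a library. ANXA2 held 50.1% and 50.8% of it in H929 in ethanol and 57.1% and 58.1% with fluvastatin, and in KMS11 it went from 25.6% and 26.2% to 35.8% and 39.0%. ANXA6 held 7.89% and 7.78% in H929 in ethanol against 33.4% and 33.5% in KMS11, and its share was lower with fluvastatin in both lines, at 6.73% and 5.20% in H929 and at 30.2% and 26.1% in KMS11. The share of ANXA1 in H929 was 0.329% and 0.456% in ethanol and 3.48% and 5.47% with fluvastatin.

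**Figure D2:**
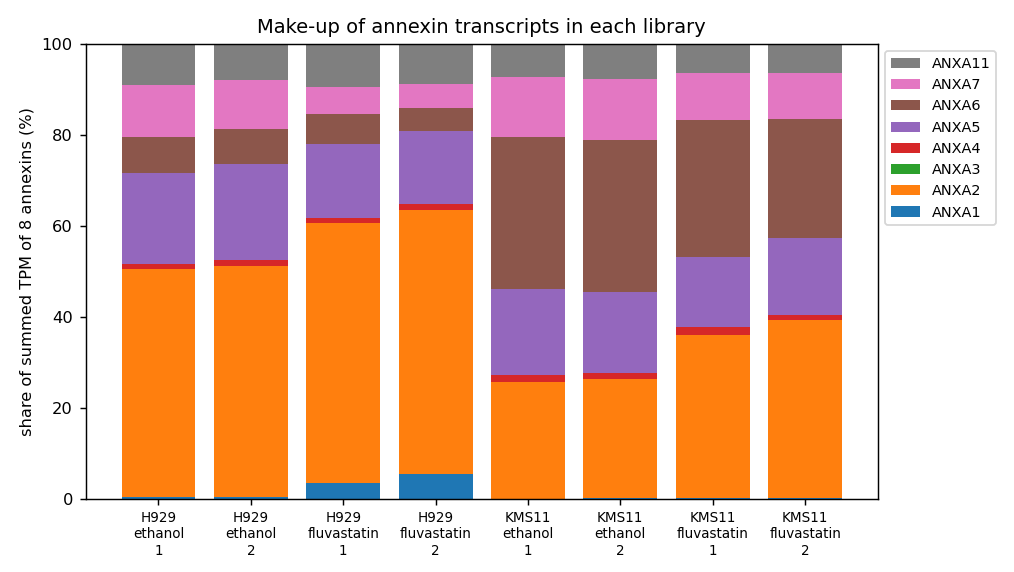
Share of the summed TPM of 8 annexins (percent, stacked to 100) held by each gene, 1 bar per library. ANXA2 fills about 50% to 58% of the H929 bars, whereas ANXA6 fills 26.1% to 33.5% of the KMS11 bars.

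The study asked how fluvastatin changes transcription in t(4;14)-positive cells. The H929 response was read first, in CPM (rounded estimated counts scaled to library size by TMM), with log2 fold changes and adjusted p values from edgeR's quasi-likelihood test over all 13129 protein-coding genes that passed the count filter. All 8 annexins passed it, and all 8 were past the adjusted p threshold of 0.05 and higher with fluvastatin in H929, where 22.7% of all tested genes were called higher and 19.3% lower. The genes had been chosen with these values known, so nothing is read from that count. Their median log2 fold change was 1.44, also with ANXA3 at its lower bound, against 0.02 over all tested genes.

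ANXA1, a protein induced by glucocorticoids whose N-terminus acts on formyl peptide receptors, was at 3.30 and 4.56 CPM in H929 ethanol libraries and at 78.7 and 140 CPM with fluvastatin. Both fluvastatin libraries lay far above both ethanol libraries, although they differed between themselves. The log2 fold change was 4.80 ± 0.33 (SE), which is 27.9-fold (adjusted p = 7.9e-06). As a scale, ATF3, a stress-induced transcription factor, changed by 2.24 ± 0.14 and RHOB, a small GTPase that carries a geranylgeranyl or farnesyl group, by 5.33 ± 0.21 on the log2 scale in the same cells.

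ANXA2, which joins S100A10 in a complex that bridges membranes and gathers plasminogen at the cell surface, rose from 448 CPM in both H929 ethanol libraries to 1160 and 1340 CPM. Replicates of ethanol were almost alike, and the groups did not overlap. The log2 fold change was 1.48 ± 0.10, or 2.80-fold (adjusted p = 8.4e-06). Processed pseudogenes of ANXA2 hold near-identical sequence, and RSEM divides such reads by estimate; ANXA2P2, with 395.83 to 1132.33 estimated counts in H929, and the sparse ANXA2P1 and ANXA2P3 together took 3.05% to 3.42% of the reads of the 4 genes in this line and 2.90% to 3.31% in KMS11.

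ANXA4, which assembles into arrays on membranes, was at 11.4 and 14.2 CPM in ethanol and 37.1 and 48.5 CPM with fluvastatin in H929, a log2 fold change of 1.74 ± 0.17 (adjusted p = 5.4e-05). The effective length that RSEM gave it, by which TPM divides, was 1222 and 1473 bases in ethanol and 1742 and 1908 bases with fluvastatin. Its TPM therefore rose less, from 4.41 and 4.46 to 9.82 and 11.96. ANXA11, which tethers RNA granules to lysosomes, went from 67.9 and 57.3 CPM to 161 and 167 CPM, a log2 fold change of 1.39 ± 0.11 (adjusted p = 1.5e-05). Neither gene's groups overlapped. ANXA5, the protein used as the phosphatidylserine stain, was at 227 and 235 CPM in ethanol and 411 and 457 CPM with fluvastatin (log2 fold change 0.91 ± 0.09, adjusted p = 6.9e-05).

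ANXA6, whose core is duplicated and which organises cholesterol-rich membranes, was at 124 and 126 CPM in ethanol and 240 and 213 CPM with fluvastatin in H929 (log2 fold change 0.86 ± 0.10, adjusted p = 0.00018). ANXA7, also called synexin and known for membrane fusion in secretion, had the smallest change, from 154 and 157 CPM to 188 and 202 CPM (log2 fold change 0.33 ± 0.09, adjusted p = 0.014). Its call was lost in 5 of the 8 fits that left out 1 library, with the adjusted p at 0.11 without H929 fluvastatin replicate 2. ANXA3 had 0 counts in both H929 ethanol libraries and 3 and 5 with fluvastatin, which is at least 3.05-fold higher when 3 counts over the group are taken as the floor; the fitted value of so sparse a gene depends on the prior count and is not given. The ANXA3 call (adjusted p = 0.013) was lost without H929 ethanol replicate 1 (0.061), H929 ethanol replicate 2 (0.052) or H929 fluvastatin replicate 2 (0.064).

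In KMS11, 3 of the 8 annexins rose with fluvastatin and none fell, where 2.58% of all tested genes were called higher and 0.533% lower. The median log2 fold change of the 8 genes was 0.34, against 0.00 over all tested genes. ANXA2 was at 228 and 245 CPM in ethanol and 415 and 464 CPM with fluvastatin, without overlap, a log2 fold change of 0.90 ± 0.10 (adjusted p = 0.0014). ANXA1 was at 0.183 and 0.547 CPM in ethanol, which is 7 and 20 counts, and at 2.35 and 2.77 CPM, 65 and 106 counts, with fluvastatin. Both treated libraries were above both controls, and the log2 fold change was 2.82 ± 0.49 (adjusted p = 0.015).

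These KMS11 calls leaned on the ethanol libraries. Without KMS11 ethanol replicate 1 the log2 fold change of ANXA1 was 2.20 (adjusted p = 0.17), that of ANXA2 was 0.82 (adjusted p = 0.068) and 0 annexins were called, with 3 at an unadjusted p under 0.05; without KMS11 ethanol replicate 2 ANXA1 was at 3.76 (adjusted p = 0.051) and ANXA2 alone was called. With either left out, the lone library is taken to vary like the other groups.

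ANXA11 in KMS11 was the third called gene, at 43.5 and 42.6 CPM in ethanol and 63.9 and 56.8 CPM with fluvastatin (log2 fold change 0.49 ± 0.11, adjusted p = 0.043). That call was lost in 5 of the 8 fits that left out 1 library: without KMS11 ethanol replicate 1 (adjusted p = 0.31) or 2 (0.33), KMS11 fluvastatin replicate 1 (0.15), or H929 fluvastatin replicate 1 (0.053) or 2 (0.058). On the TPM scale it did not move: 38.6 and 39.2 TPM in ethanol and 36.5 and 40.8 TPM with fluvastatin overlapped. The log2 difference by limma on log2(TPM + 1) was -0.011, where the median of all tested genes was -0.083. The effective length that RSEM gave ANXA11 was 785 and 699 bases in the ethanol libraries and 1013 and 887 bases in the fluvastatin libraries of KMS11, and TPM divides by it. In H929 that length was 954 to 995 bases in all 4 libraries, and counts and TPM moved together. Whether the isoforms in use or the estimate differed was not tested.

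**Figure D3:**
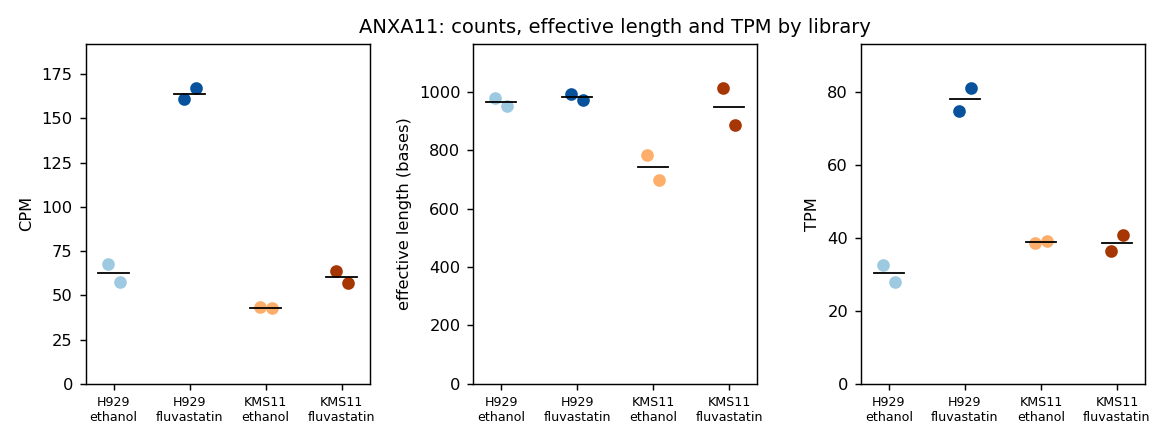
ANXA11 in each library as CPM (left), RSEM effective length in bases (middle) and TPM (right), all axes from 0, with group means as bars. In KMS11, CPM and effective length are both higher with fluvastatin while TPM stays at 36.5 to 40.8.

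The other 5 genes did not pass the threshold in KMS11. ANXA3 was at 0.470 and 0.629 CPM in ethanol and 1.01 and 1.23 CPM with fluvastatin (log2 fold change 1.03 ± 0.37, adjusted p = 0.16), so that its libraries did not overlap but held 18 to 47 counts only. ANXA5 had 211 and 209 CPM in ethanol against 227 and 252 CPM (log2 fold change 0.19 ± 0.09, adjusted p = 0.26), again without overlap. ANXA6 at 515 and 539 against 621 and 531 CPM, ANXA4 at 19.2 and 17.5 against 21.3 and 18.1 CPM, and ANXA7 at 198 and 207 against 187 and 202 CPM overlapped between treatments. Their log2 fold changes were 0.13 ± 0.10, 0.10 ± 0.17 and -0.06 ± 0.09.

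**Figure D4:**
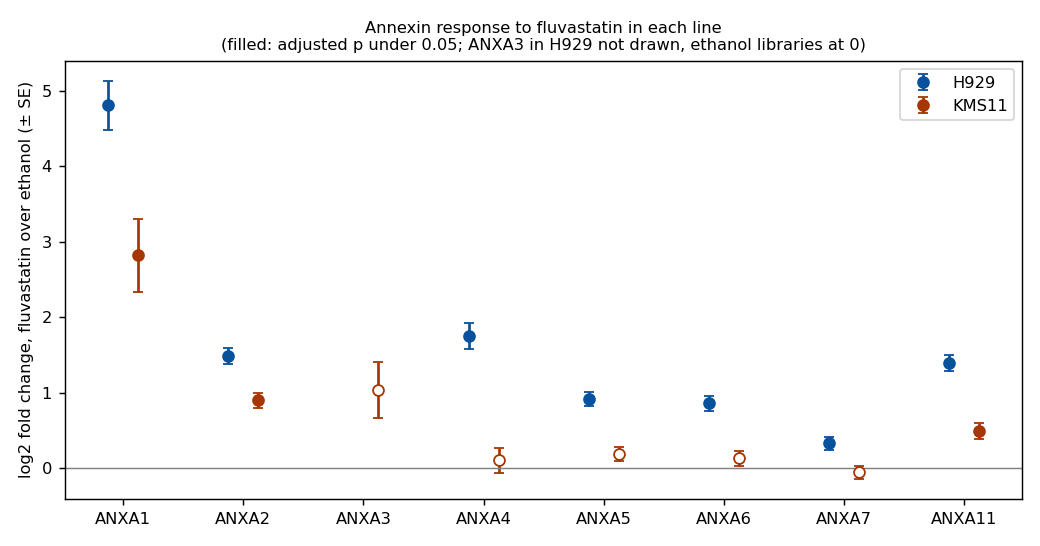
Log2 fold change of each annexin with fluvastatin against ethanol, with its SE, in H929 and KMS11; filled points have an adjusted p under 0.05. Every H929 point lies above the KMS11 point of the same gene, and ANXA1 is highest in both lines at 4.80 and 2.82; ANXA3 is drawn for KMS11 only.

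The difference of the responses, KMS11 minus H929, was tested as its own contrast. It was past the threshold for 5 annexins, all with the smaller response in KMS11, where 11.5% of all tested genes were called lower and 11.7% higher. ANXA4 differed by -1.64 ± 0.24 on the log2 scale (adjusted p = 0.0016), ANXA11 by -0.90 ± 0.15 (adjusted p = 0.0032) and ANXA5 by -0.72 ± 0.13 (adjusted p = 0.0049). ANXA6 differed by -0.73 ± 0.15 (adjusted p = 0.0075). For ANXA2 the difference was -0.59 ± 0.14 (adjusted p = 0.016), and its call was lost in 4 of 8 fits that left out 1 library.

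ANXA1 (-1.99 ± 0.68, adjusted p = 0.059) and ANXA7 (-0.38 ± 0.12, adjusted p = 0.051) stood just outside the threshold, as did ANXA3 (adjusted p = 0.069), and this does not show that the lines respond alike. The ANXA1 difference was past it in DESeq2 (-2.03, adjusted p = 0.042) and with median-of-ratios scaling (-2.03, adjusted p = 0.048), and without H929 fluvastatin replicate 1 it was -2.34 (adjusted p = 0.012). The ANXA7 difference was past it in DESeq2 (-0.43, adjusted p = 0.028), with median-of-ratios scaling (-0.43, adjusted p = 0.049) and with the stricter filter (-0.40, adjusted p = 0.038), and without KMS11 fluvastatin replicate 2 it was -0.45 (adjusted p = 0.034).

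In the fit over both lines, which had a term for the line, the response was past the threshold for 4 annexins, all higher, where 6.50% of all tested genes were called higher and 3.93% lower. ANXA1 had a log2 fold change of 4.23 ± 0.45 (adjusted p = 0.0021), ANXA2 of 1.19 ± 0.13 (adjusted p = 0.0022), ANXA11 of 0.94 ± 0.18 (adjusted p = 0.019) and ANXA5 of 0.55 ± 0.14 (adjusted p = 0.045). ANXA6 (0.49 ± 0.15, adjusted p = 0.065), ANXA4 (0.92 ± 0.31, adjusted p = 0.089), ANXA3 (1.41 ± 0.49, adjusted p = 0.094) and ANXA7 (0.13 ± 0.10, adjusted p = 0.37) were not called by edgeR. DESeq2 called ANXA4 (adjusted p = 0.023) and ANXA6 (adjusted p = 0.031), and edgeR called ANXA6 without KMS11 fluvastatin replicate 2 (0.57, adjusted p = 0.039). The ANXA5 call was lost in 7 of the 8 fits without 1 library, with adjusted p up to 0.17, and the ANXA11 call in 3 of them, those without H929 ethanol replicate 1 (0.064), H929 ethanol replicate 2 (0.074) or H929 fluvastatin replicate 1 (0.069).

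In ethanol, 7 of the 8 annexins differed between the lines, 4 higher and 3 lower in KMS11, where 35.6% of all tested genes were called higher and 36.4% lower. ANXA6 was 4.22-fold higher in KMS11, a log2 difference of 2.08 ± 0.11 (adjusted p = 1.1e-07), and its KMS11 ethanol libraries also lay above both H929 fluvastatin libraries. ANXA3, with 41 counts over both KMS11 libraries and 0 over both H929 libraries, was at least 9.92-fold higher. It passed the filter on low counts only through KMS11 libraries, where it was high. Its call and this bound are therefore no support for a difference between the lines. ANXA4 (0.52 ± 0.17, adjusted p = 0.019) and ANXA7 (0.38 ± 0.09, adjusted p = 0.003) were also higher in KMS11; the ANXA4 call was lost without KMS11 ethanol replicate 1 (adjusted p = 0.10) and without H929 ethanol replicate 1 (adjusted p = 0.14).

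ANXA1 was 10.7-fold lower in KMS11 (log2 difference -3.42 ± 0.47, adjusted p = 0.0001) and ANXA2 was 1.90-fold lower (-0.92 ± 0.10, adjusted p = 2.1e-05). The ANXA1 level reached in KMS11 with fluvastatin, 2.35 and 2.77 CPM, was under that of H929 in ethanol, 3.30 and 4.56 CPM, whereas ANXA2 in treated KMS11, at 415 and 464 CPM, spanned the 448 CPM of untreated H929. ANXA11 was lower in KMS11 in CPM (-0.54 ± 0.11, adjusted p = 0.0012) but higher in log2(TPM + 1), by 0.36, and ANXA5 likewise went from -0.14 ± 0.09 (adjusted p = 0.21) to 0.36. The median of all tested genes shifted by 0.32 on that TPM scale, so that relative to it neither gene is far from the typical gene.

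Annexins work with partners, and lists of these, written with earlier results of these data known, were read by their counts and medians. S100 proteins are small calcium-binding proteins that bind annexin N-termini. The list of them also held S100PBP, a binding protein of S100P that is not itself an S100 protein. S100PBP was tested and was not among the genes that edgeR called with fluvastatin. Of the 20 genes of this list 11 were tested. By edgeR 8 of them were called higher in H929 and 0 lower, where 22.7% of all tested genes were called higher. Of these 8, S100A2, S100A3, S100A5 and S100P passed the filter on low counts only through the treated H929 libraries, where they were high, so that their count is no support for the list. The stricter filter, which also admits a gene through a single group, left 6 of the list, all called. DESeq2, on the same genes as edgeR, called 6, so neither count is free of that selection. In KMS11, 1 was called higher (2.58% of all tested genes). The difference of responses was past the threshold for 4, S100A10, S100A11, S100A4 and S100A6, all smaller in KMS11 (11.5% of all tested genes).

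S100A10, the partner of ANXA2, was at 18.4 and 15.8 CPM in H929 ethanol libraries and 153 and 193 CPM with fluvastatin, a log2 fold change of 3.33 ± 0.22 (adjusted p = 7.2e-06). In KMS11 it was at 1.96 and 3.04 CPM in ethanol and 3.68 and 5.98 CPM with fluvastatin (0.98 ± 0.27, adjusted p = 0.085), where DESeq2 called it (adjusted p = 0.0028). Per length, S100A10 in H929 went from 18.3 and 15.1 TPM to 153 and 194 TPM beside 181 and 179 to 455 and 537 TPM of ANXA2. KMS11 kept it at 2.82 to 8.59 TPM, under every H929 library, with ANXA2 at 132 to 248 TPM.

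S100A11, which binds the N-terminus of ANXA1, rose in H929 from 217 and 230 to 447 and 471 CPM (log2 fold change 1.04 ± 0.10, adjusted p = 5.5e-05). In KMS11 it went from 207 and 248 to 332 and 335 CPM (0.55 ± 0.10, adjusted p = 0.02), and the call was lost without KMS11 ethanol replicate 1 (0.40, adjusted p = 0.32) or replicate 2 (0.66, adjusted p = 0.079). S100A6, known to bind ANXA11 and ANXA2, rose in H929 from 39.4 and 28.0 to 434 and 494 CPM (log2 fold change 3.78 ± 0.19). S100A4, which also binds ANXA2, rose there from 36.5 and 22.4 to 349 and 375 CPM (3.61 ± 0.20), and in KMS11 neither passed the threshold (0.70 ± 0.20 and 0.83 ± 0.20, adjusted p = 0.09 and 0.055), though DESeq2 called both.

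**Figure D5:**
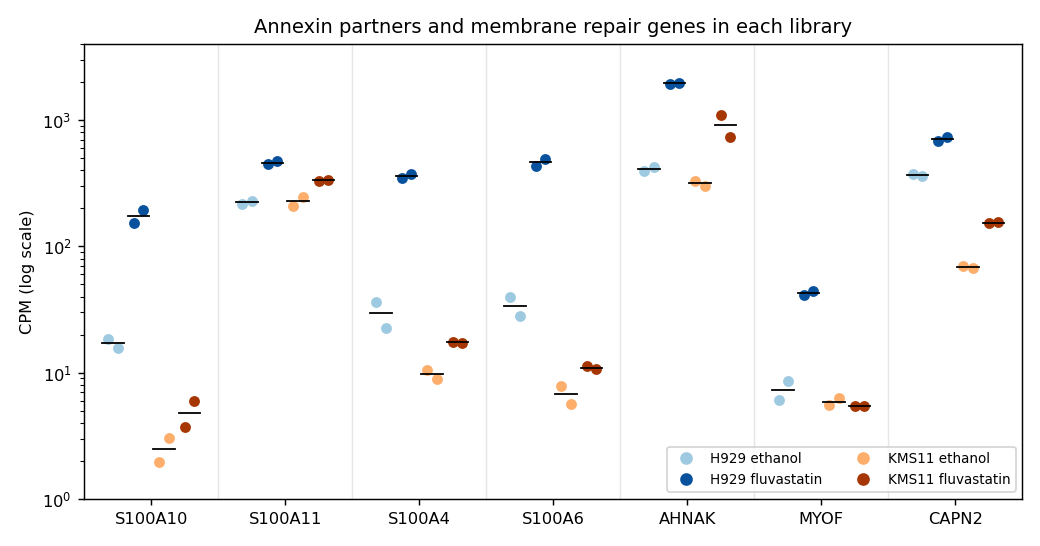
CPM (log axis) of 4 S100 genes and 3 membrane repair genes in each library, with group means as bars. S100A10, S100A4 and S100A6 reach 153 to 494 CPM in treated H929 cells and stay under 20 CPM in all KMS11 libraries, while AHNAK and CAPN2 are higher with fluvastatin in both lines.

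Of 38 genes of membrane repair and the ESCRT machinery, in which annexins also act, 30 were tested. In H929, 15 rose and 1, EHD4, fell (22.7% and 19.3% of all tested genes), with a median log2 fold change of 0.34. In KMS11, 2 rose (2.58% of all tested genes) and the median was 0.01. AHNAK, a giant scaffold that binds the ANXA2 and S100A10 complex, went from 394 and 423 to 1920 and 1980 CPM in H929 (log2 fold change 2.25 ± 0.16, adjusted p = 1.1e-05) and from 330 and 301 to 1090 and 729 CPM in KMS11 (1.52 ± 0.16, adjusted p = 0.00085). CAPN2, a calpain subunit that cuts cortical proteins at wounds, rose by 0.95 ± 0.09 in H929 and by 1.17 ± 0.09 in KMS11 on the log2 scale. MYOF, a ferlin, rose in H929 from 6.06 and 8.60 to 41.4 and 44.3 CPM and was at 5.43 to 6.24 CPM in all KMS11 libraries, and its responses differed by -2.66 ± 0.25 (adjusted p = 0.00021).

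Phosphatidylserine, the lipid that annexins bind, is moved by scramblases and flippases. Of 27 listed genes of scramblases, flippases and related proteins, not all of them known to move this lipid, 19 were tested. In H929, 8 rose and 1, ATP10D, fell (22.7% and 19.3% of all tested genes), with a median log2 fold change of 0.41, and in KMS11 the scramblase VMP1 alone was called (0.51 ± 0.11, adjusted p = 0.043; 2.58% of all tested genes rose), with a median of -0.08; 0 genes were called there with median-of-ratios scaling. PLSCR1, a scramblase-like protein, rose by 1.16 ± 0.14 in H929, and ATP8A2, a flippase, by 1.13 ± 0.23. The 7 genes whose responses differed between the lines were all lower in KMS11 (11.5% of all tested genes).

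The receptors for ANXA1 peptides, FPR1, FPR2 and FPR3, had 0 counts in all 8 libraries. ANXA1 is also known as an inhibitor of phospholipase A2, and of 22 genes for phospholipase A2 enzymes and eicosanoid synthesis 15 were tested. By edgeR 0 rose in H929 (22.7% of all tested genes) and 0 in KMS11 (2.58%), with 2 in each line higher at an unadjusted p under 0.05. DESeq2 also called 0 higher in each line. The fits with a replicate block and with no filter each called 1 in H929 and 2 in KMS11, and 2 were called in H929 with the GC content trend removed. Across both lines ALOX5, an enzyme of leukotriene synthesis (0.77, adjusted p = 0.048), and PLA2G4C, a cytosolic phospholipase A2 (1.02, adjusted p = 0.038), were called higher by edgeR (6.50% of all tested genes). DESeq2 called 1 of the list across both lines, and 0 were called with the replicate block or by limma on either TPM scale. Neither the ALOX5 nor the PLA2G4C call was kept when 1 library was left out, whichever it was. PTGES2 and TBXAS1 fell in H929, by 1.11 and by 1.94 on the log2 scale (19.3% of all tested genes were called lower there). Of 11 genes of plasminogen activation, which ANXA2 assists, 5 were tested and 4 were called higher in H929 (22.7% of all tested genes): SERPINE2 (1.46 ± 0.15) and SERPINB8 (1.32 ± 0.21), both inhibitors of proteases, PLGRKT, a plasminogen receptor (0.54 ± 0.16), and the sparse SERPINB6, with 1 and 0 counts in ethanol and 4 and 3 with fluvastatin. DESeq2 called 3 of the list, and every fit that left out 1 library called 2 or 3. In KMS11, 0 genes of that list were called by edgeR or DESeq2, and 0 had an unadjusted p under 0.05. ANXA2R, reported as a receptor for ANXA2, was 17.4-fold lower in KMS11 in ethanol (3 and 4 counts against 58 and 35). ANXA2R passed the filter on low counts only through H929 libraries, where it was high. Its call and this fold are therefore no support for a difference between the lines. It did not pass the threshold for fluvastatin in either line.

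The remaining annexin genes were at or near 0. ANXA8 had no count, ANXA10 had 1 in all 8 libraries together, ANXA8L1 had 15, ANXA13 had 23 and ANXA9 had 69. Only ANXA9 passed the filter, and only through the treated H929 libraries, so its change in H929 is no support for a rise. Its highest level was 0.22 TPM, against 0.52 TPM for ANXA3, the lowest of the 8 members. It was not called by edgeR in any comparison, with log2 fold changes of 1.40 ± 0.56 in H929 (adjusted p = 0.069; called there with the GC content trend removed) and -0.51 ± 0.61 in KMS11. ANXA8 and ANXA8L1 are near-identical copies whose reads cannot be placed with certainty.

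As a description of shared patterns, log2(CPM + 1) was compared across the 8 libraries, which share lines and treatments. The tested genes outside the family with the highest Pearson r to ANXA2 were VIM (0.997), the intermediate filament vimentin, EZR (0.994), the membrane and actin linker ezrin, and PLP2 (0.990). VIM went from 1720 and 1890 to 4520 and 4800 CPM in H929 and from 925 and 1000 to 1610 and 1650 CPM in KMS11. Those nearest to ANXA1 were SPTB (0.996), an erythroid spectrin, PTPRR (0.994), a phosphatase, and PDP1 (0.994), and those nearest to ANXA6 were STAT3 (0.999), IL2RB (0.997) and ROBO1 (0.997). STAT3 was at 72.3 and 67.7 CPM in H929 in ethanol and at 180 to 199 CPM in the KMS11 libraries. Among the members, ANXA1 had an r of 0.984 with ANXA2, 0.985 with ANXA11 and 0.982 with ANXA5, but of -0.44 with ANXA6 and 0.05 with ANXA7.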

How the data were processed

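RNA-seq libraries of H929 and KMS11 cells were grouped by the line and treatment in the labels. The authors aligned stranded, ribosomal RNA-depleted libraries with STAR 2.5.2b to hg38 and quantified genes with RSEM 1.3.0. The authors deposited expected counts, not normalized, with TPM, FPKM and effective length for each library. Names and positions came from GENCODE release 44 on the same build, promoters from RefSeq.

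Rounded expected counts were filtered (filterByExpr: count 10, total 15), scaled by TMM and tested with edgeR 4.0.16 in R 4.3.3, with p values adjusted by Benjamini-Hochberg over 13129 protein-coding genes. The fit over both lines had terms for line and treatment; other contrasts used group means. The SE is the log2 fold change over the root of F. Scripts were tested on simulated data. Alternatives used DESeq2 1.42.0, limma 3.58.1 on log2(TPM + 1) or log2(TPM + 0.1), other scalings and filters, a GC content trend, a replicate block and each library left out.

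The annexins and the related lists were chosen with earlier results of these data known. Named genes were all annexins, up to 5 called genes with the largest change per list, S100A10, S100A11, ATF3 and RHOB. The 3 genes nearest in pattern to ANXA1, ANXA2 and ANXA6 were also named, as was S100PBP for its place in the S100 list. EHD4 and the 4 S100 genes with differing responses were named after their values were seen. The spread between replicates limits well-expressed genes, and counting error limits ANXA1 and ANXA3 in KMS11.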

Additional observations from a re-analysis of the deposited data

Results flagged for a closer look

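A test of the difference of responses itself, KMS11 minus H929 on the log2 scale, was past the threshold for 5 annexins. Its values were -0.59 for ANXA2, -1.64 for ANXA4, -0.72 for ANXA5, -0.73 for ANXA6 and -0.90 for ANXA11. For ANXA4, ANXA5, ANXA6 and ANXA11 the call was kept in all 8 fits that left out 1 library, and for ANXA2 it was lost in 4 of them. The genes were chosen with these responses known, and the cause of the differences was not tested.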

How the results depend on the processing

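The number of annexins called across both lines, 4, was 6 with DESeq2, 2 with limma on log2(TPM + 1), 2 with log2(TPM + 0.1), 2 with a replicate block, 2 at an adjusted p under 0.01 and 0 with no cell line term, where the lines enter the error (5 at an unadjusted p under 0.05); it was 2 to 4 with 1 library left out. In KMS11 the count of 3 was 1 with limma on log2(TPM + 1) and 1 at an adjusted p under 0.01, and 0 to 3 with 1 library left out, with 0 without KMS11 ethanol replicate 1 and 1 without KMS11 ethanol replicate 2. The counts in H929 (8), of differing responses (5) and of the lines in ethanol (7) moved by less than 1.5 times under every alternative, with 6 to 8, 4 to 7 and 6 to 8. The replicate block could not be fitted for the lines in ethanol, and the replicate numbers are not known to mark pairs: deviations of same-numbered libraries correlated at 0.773 in H929 and -0.0792 in KMS11. With the block, the difference of responses was called for 7 annexins.

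Single values reversed in KMS11 for ANXA6 (-0.029 with limma on log2(TPM + 1) and on log2(TPM + 0.1) and -0.002 with the GC content trend removed), ANXA11 (-0.011 and -0.012 with these TPM scales) and ANXA4 (-0.024 to 0.17 with 1 library left out). The median of all tested genes in KMS11 was -0.083 and -0.122 on these TPM scales. Relative to it, ANXA6 and ANXA11 were not lower with fluvastatin there. Between lines in ethanol, ANXA5 was 0.36 and 0.37 and ANXA11 was 0.36 and 0.37 with the same TPM scales, where the median of all tested genes shifted by 0.32 and 0.46. All other annexin values kept their sign. FPKM and TPM over protein-coding genes multiply a library by 1 factor and leave the order of annexins within it.

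Of the related lists, S100 genes called in KMS11 (1) were 0 to 4, and S100 genes with differing responses (4) were 3 to 9; membrane repair genes were 9 to 18 higher in H929 (15), 2 to 7 higher in KMS11 (2) and 1 to 15 lower in the difference (8). Genes of the scramblase and flippase list were 3 to 12 higher in H929 (8) and 2 to 9 lower in the difference (7). Genes of plasminogen activation were 2 to 4 higher in H929 (4).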
